A study of Sus scrofa with 10 samples.

Results

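The genes described here are 10 macrophage genes of the pig right ventricle, TREM2, SPP1, GPNMB, LGMN, LYZ, CD68, CSF1R, CD163, MRC1 and CD44, chosen by gene symbol from the 12378 genes of the deposited table that have one. All 10 were measured. They were compared between 5 pigs with CTEPH (chronic thromboembolic pulmonary hypertension, in which clots obstruct the pulmonary arteries and load the right ventricle with pressure) and 5 Sham pigs, with 1 biopsy library per pig. The CTEPH libraries are s1, s3, s4, s5 and s9, and the Sham libraries are s2, s6, s7, s8 and s10. The sources used here do not give breed, sex, age, the way CTEPH was brought about or its duration.

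Macrophages of the heart are of several kinds. Resident macrophages, which carry the scavenger receptor CD163 and the mannose receptor MRC1, are largely kept up in the tissue and clear debris. Macrophages that take up lipid and dying cells in injured tissue switch on the lipid receptor TREM2, the secreted phosphoprotein osteopontin (SPP1) and the lysosomal glycoprotein GPNMB, a pattern described mainly in mouse and human tissue. Both kinds depend on CSF1R, the receptor for the growth factors CSF1 and IL-34. The comparison asks whether genes of the lipid-associated kind and of the resident kind differed alike in the loaded ventricle.

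The values are log2 values, so a difference of 1 is a doubling, and they are not scaled by gene length, so levels are compared between libraries and not between genes. Relative sequencing depth was 0.724 to 1.57 in CTEPH and 0.748 to 1.51 in Sham, and Pearson r across genes between any pair of libraries was at most 0.972. The 6 cardiomyocyte markers lay above 99.8% of genes by mean log2 value, not scaled by length. All 11 defining macrophage markers were measured, none had a count of 0 in any library, and 0 of them passed the test in either direction (limma, Benjamini-Hochberg), while 3 had an unadjusted p under 0.05, which 20.3% of all genes had in this comparison. In bulk tissue a change in the number of macrophages and a change in RNA per macrophage cannot be told apart.

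In CTEPH, 5 of the 10 genes were higher and 0 were lower at an adjusted p under 0.05 (limma, Benjamini-Hochberg over all genes), against 2.83% of all genes higher and 1.79% lower. The higher genes were TREM2, SPP1, LGMN, LYZ and CD44, and the group was put together with results of these libraries already known. GPNMB, CD68, CSF1R, CD163 and MRC1 did not pass, and 8 of the 10 had an unadjusted p under 0.05 (20.3% of all genes), among which CD68 alone had the lower value in CTEPH. The median log2 fold change was 1.0 over the 10 genes and -0.03 over all genes. In SPP1, LGMN, LYZ and CD44 every CTEPH library lay above every Sham library, a separation found for 3.70% of all genes.

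**Figure D1:**
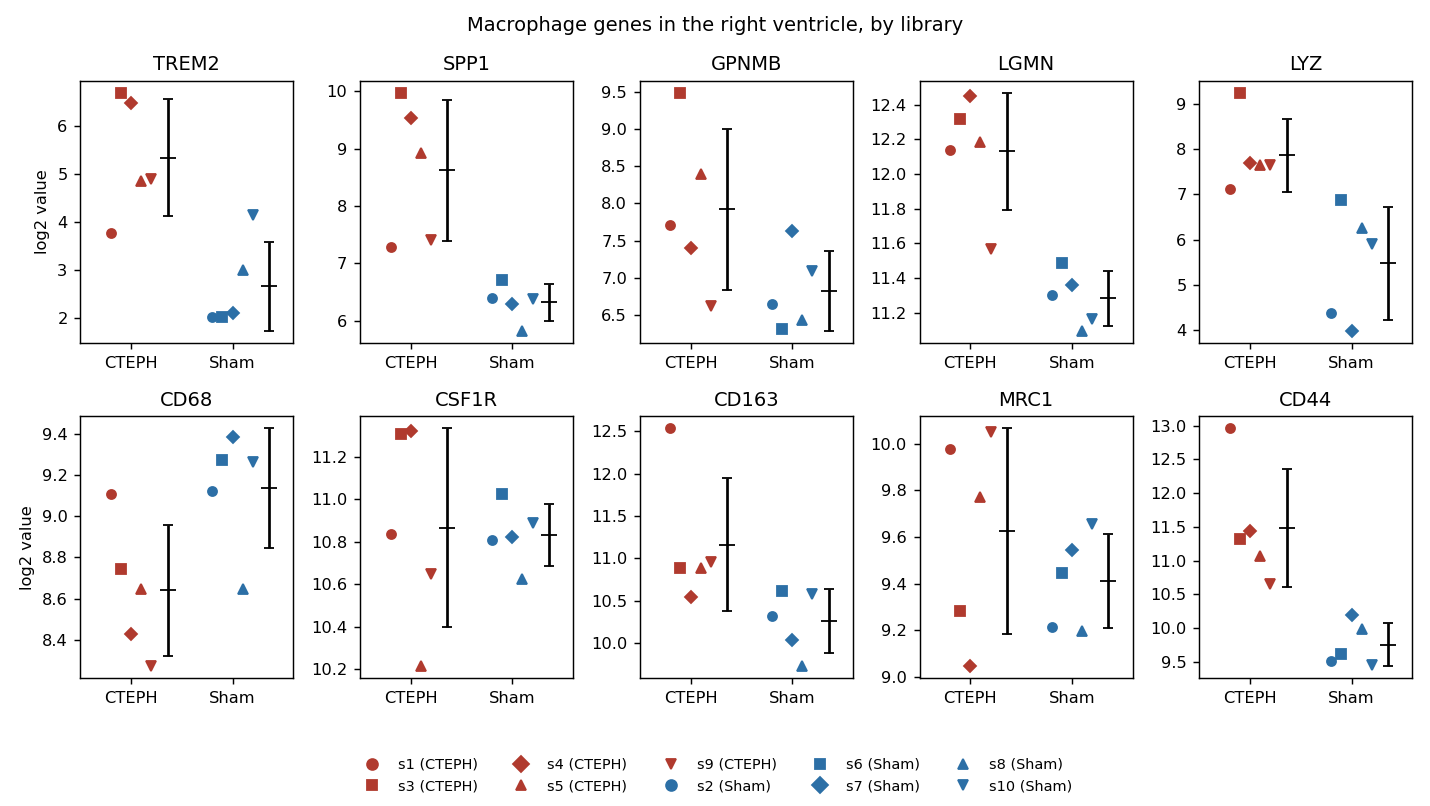
Log2 value of each of the 10 genes in every library, with CTEPH in red on the left and Sham in blue on the right of each panel; black bars give the group mean ± SD (n = 5 each), and the vertical axes do not start at 0 and differ between panels. SPP1, LGMN, LYZ and CD44 separate the groups completely, TREM2 overlaps through s1 and s10, and CSF1R and MRC1 overlap widely.

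TREM2, a receptor for lipids and lipoproteins on macrophages and microglia, is encoded on chromosome 7 of the pig genome (Sscrofa11.1), from 36465921 to 36471509. Its log2 values were 3.78, 6.70, 6.50, 4.86 and 4.89 in CTEPH libraries s1, s3, s4, s5 and s9, against 2.01, 2.01, 2.09, 3.0 and 4.15 in Sham libraries s2, s6, s7, s8 and s10. Libraries s3 and s4 were highest, and the lowest CTEPH library, s1, lay below the highest Sham library, s10. CTEPH averaged 5.34 ± 1.23 and Sham 2.65 ± 0.93 (SD, n = 5 each), and the log2 fold change of 2.69 ± 0.65 (SE) passed (limma, Benjamini-Hochberg adjusted p = 0.0325).

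TREM2 drew few reads: its mean log2 value, not scaled by length, lay above only 0.755% of genes, close to the floor of the table. Whether a gene this low would have stayed in the deposited table without its CTEPH counts was not tested. Whole counts read back from the deposited values were 6, 48, 76, 15 and 10 in CTEPH libraries s1, s3, s4, s5 and s9, a sum of 155, against 2, 3, 1, 3 and 7 in Sham libraries s2, s6, s7, s8 and s10, a sum of 16. The counts are known up to a common factor. Divided by relative depth CTEPH averaged 26.9 ± 21.5 and Sham 3.40 ± 2.88 (SD, n = 5 each), a ratio of 7.90. Its call was lost in 7 of 10 refits with a single library omitted (adjusted p of 0.0146 to 0.0899 over the 10, limma with Benjamini-Hochberg): those without CTEPH library s3, s4 or s5 and those without Sham library s2, s6, s7 or s8. With voom on the recovered counts it was lost as well, at an adjusted p = 0.0894 (limma, Benjamini-Hochberg).

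SPP1 encodes osteopontin, a secreted protein that binds integrins and CD44, and lies on chromosome 8 from 131077786 to 131085334. CTEPH libraries s1, s3, s4, s5 and s9 had log2 values of 7.28, 9.97, 9.53, 8.93 and 7.40, against 6.40, 6.72, 6.29, 5.82 and 6.38 in Sham libraries s2, s6, s7, s8 and s10. The groups did not overlap, but CTEPH libraries s1 and s9 stood close to Sham while s3, s4 and s5 stood far above it. CTEPH averaged 8.62 ± 1.23 and Sham 6.32 ± 0.32 (SD, n = 5 each), and the log2 fold change of 2.30 ± 0.47 (SE) passed (limma, Benjamini-Hochberg adjusted p = 0.0161). The call was kept in all 10 refits without 1 library, with an adjusted p of 0.0050 to 0.0450 (limma, Benjamini-Hochberg).

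GPNMB, a transmembrane glycoprotein of lysosomes and of phagosomes in lipid-laden macrophages, lies on chromosome 9 from 92037428 to 92071501. In CTEPH libraries s1, s3, s4, s5 and s9 the log2 values were 7.70, 9.48, 7.40, 8.39 and 6.62, against 6.65, 6.31, 7.63, 6.44 and 7.09 in Sham libraries s2, s6, s7, s8 and s10. Libraries s3, s5 and s1 lay above every Sham library, whereas s4 and s9 lay within the Sham range. Its log2 fold change of 1.09 ± 0.45 (SE) did not pass (limma, Benjamini-Hochberg adjusted p = 0.194). Without CTEPH library s3 it was 0.70 ± 0.37.

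LGMN encodes legumain, a cysteine protease of the lysosome that cuts after asparagine, and lies on chromosome 7 from 114176217 to 114210096. Its log2 values were 12.14, 12.32, 12.45, 12.18 and 11.57 in CTEPH libraries s1, s3, s4, s5 and s9, against 11.30, 11.49, 11.36, 11.09 and 11.16 in Sham libraries s2, s6, s7, s8 and s10. The groups did not overlap, and the CTEPH library nearest to Sham was s9. CTEPH averaged 12.13 ± 0.34 and Sham 11.28 ± 0.16 (SD, n = 5 each), and the log2 fold change of 0.85 ± 0.16 (SE), or 1.80-fold, passed (limma, Benjamini-Hochberg adjusted p = 0.0116). It had the smallest p of the 10 genes and kept its call in all 10 refits without 1 library.

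LYZ encodes lysozyme, an enzyme that cuts bacterial cell walls and is made by macrophages and neutrophils, and lies on chromosome 5 from 33612593 to 33618953. CTEPH libraries s1, s3, s4, s5 and s9 had log2 values of 7.12, 9.24, 7.69, 7.64 and 7.65, against 4.38, 6.89, 3.98, 6.26 and 5.90 in Sham libraries s2, s6, s7, s8 and s10. Every CTEPH library lay above every Sham library, and here the Sham pigs were the more scattered, with an SD of 0.80 in CTEPH and 1.25 in Sham (n = 5 each). Recovered counts were 66 to 277 in CTEPH and 5 to 88 in Sham, and divided by relative depth CTEPH averaged 135.9 ± 93.1 and Sham 28.2 ± 21.3 (SD, n = 5 each). The log2 fold change of 2.38 ± 0.55 passed (SE; limma, Benjamini-Hochberg adjusted p = 0.0279). The call was lost without CTEPH library s3, s4 or s5 and without Sham library s2 or s7, where the adjusted p reached 0.0648 (limma, Benjamini-Hochberg).

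CD68, a lysosomal membrane glycoprotein used as a general macrophage stain, was the only one of the 10 genes with a negative log2 fold change. It lies on chromosome 12 from 52874754 to 52877256. In CTEPH libraries s1, s3, s4, s5 and s9 the log2 values were 9.11, 8.74, 8.43, 8.65 and 8.27, against 9.12, 9.27, 9.38, 8.65 and 9.26 in Sham libraries s2, s6, s7, s8 and s10. The groups overlapped through Sham library s8 alone. The difference of -0.50 ± 0.20 did not pass (SE; limma, Benjamini-Hochberg adjusted p = 0.175), and an exact two-sided permutation test of this gene alone gave an unadjusted p = 0.0397.

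CSF1R, the receptor on which macrophage survival depends, lies on chromosome 2 from 151102138 to 151130311. Its log2 values were 10.84, 11.31, 11.32, 10.21 and 10.65 in CTEPH libraries s1, s3, s4, s5 and s9, against 10.81, 11.02, 10.82, 10.62 and 10.89 in Sham libraries s2, s6, s7, s8 and s10. CTEPH libraries s3 and s4 lay above all Sham libraries and s5 below them, so the CTEPH pigs were spread on both sides of a narrow Sham range. The log2 fold change was 0.03 ± 0.20 (SE; limma, Benjamini-Hochberg adjusted p = 0.951), and its sign turned in 3 of the 10 refits without 1 library.

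CD163, a receptor that takes up haemoglobin bound to haptoglobin, lies on chromosome 5 from 63300200 to 63334497. CTEPH libraries s1, s3, s4, s5 and s9 had log2 values of 12.54, 10.89, 10.54, 10.89 and 10.96, against 10.32, 10.62, 10.04, 9.72 and 10.58 in Sham libraries s2, s6, s7, s8 and s10. Library s1 stood far above the rest, and s4 lay within the Sham range. Its log2 fold change of 0.91 ± 0.32 did not pass (SE; limma, Benjamini-Hochberg adjusted p = 0.132). Without CTEPH library s1 it was 0.56 ± 0.19, also uncalled (limma, Benjamini-Hochberg adjusted p = 0.107). An exact two-sided permutation test of CD163 alone gave an unadjusted p = 0.0238, smaller than that of CD68. For the other uncalled genes, GPNMB, CSF1R and MRC1, the same exact test gave unadjusted p of 0.0714, 0.865 and 0.349.

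MRC1, the mannose receptor that clears glycoproteins, lies on chromosome 10 from 44107926 to 44226734. In CTEPH libraries s1, s3, s4, s5 and s9 the log2 values were 9.97, 9.28, 9.05, 9.77 and 10.05, against 9.21, 9.45, 9.55, 9.20 and 9.66 in Sham libraries s2, s6, s7, s8 and s10. Libraries s3 and s4, the highest for TREM2 and SPP1, were the lowest CTEPH libraries for MRC1. The log2 fold change was 0.21 ± 0.21 (SE; limma, Benjamini-Hochberg adjusted p = 0.614).

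CD44, a receptor for hyaluronan and osteopontin found on leukocytes, fibroblasts and many other cells, lies on chromosome 2 from 25788699 to 25884209. Its log2 values were 12.96, 11.31, 11.43, 11.07 and 10.65 in CTEPH libraries s1, s3, s4, s5 and s9, against 9.52, 9.62, 10.20, 9.98 and 9.45 in Sham libraries s2, s6, s7, s8 and s10. The groups did not overlap, and s1 was the highest library. CTEPH averaged 11.48 ± 0.88 and Sham 9.75 ± 0.32 (SD, n = 5 each), and the log2 fold change of 1.73 ± 0.34 (SE) passed (limma, Benjamini-Hochberg adjusted p = 0.0133). The call was kept in all 10 refits without 1 library, and without s1 the log2 fold change was 1.36 ± 0.20.

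**Figure D2:**
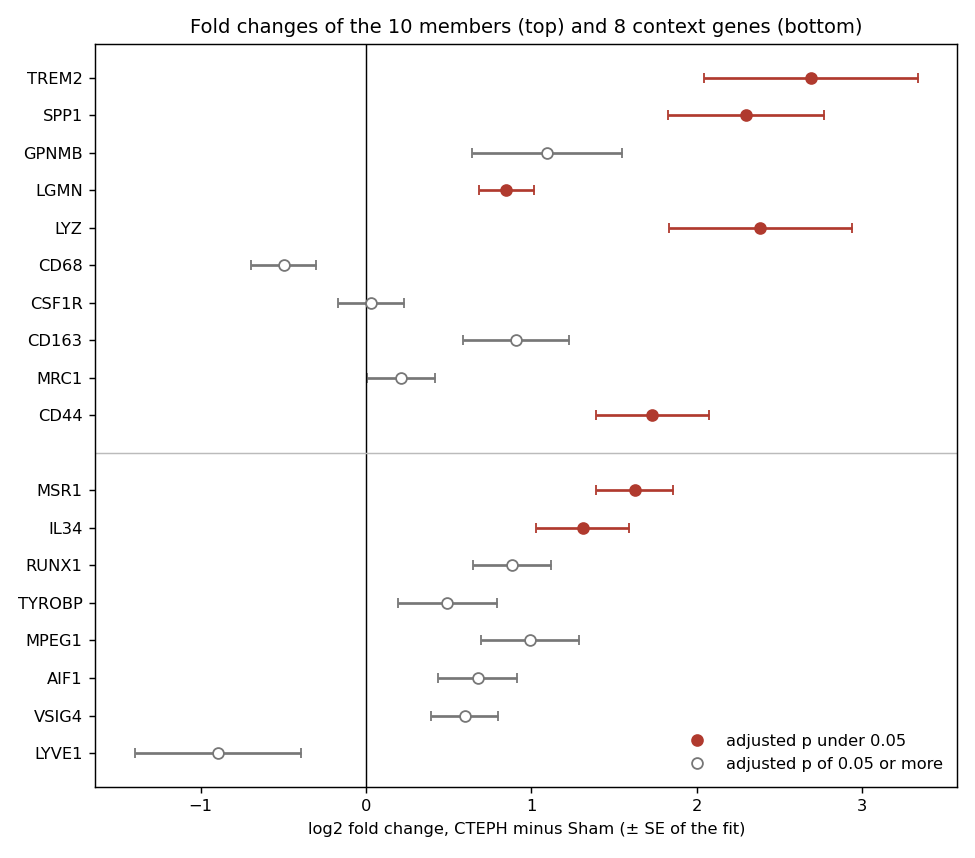
Log2 fold change, CTEPH minus Sham, of the 10 genes above the grey line and of 8 genes from other macrophage lists below it; whiskers give the SE of the limma fit, and filled red points have an adjusted p under 0.05. TREM2, SPP1, LYZ, CD44, LGMN, MSR1 and IL34 are filled, while CD68 and LYVE1 alone lie left of 0.

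The lipid-associated and resident genes were then set against each other within each library. For TREM2, SPP1 and GPNMB against CD163 and MRC1 this gives 6 differences of log2 values, each tested between CTEPH and Sham by two-sided exact permutation and adjusted over the 6. The pairs were chosen with earlier results of these data known. TREM2 and SPP1 had already been called on their own, so a shift in their pairs is not independent support. The difference SPP1 minus MRC1 averaged -1.0 ± 1.63 in the 5 CTEPH pigs and -3.09 ± 0.30 in the 5 Sham pigs (SD, n = 5 each), a shift of 2.09 toward SPP1 with all 5 CTEPH libraries above every Sham library (exact p = 0.00794, the smallest this design allows, adjusted p = 0.0476). The separation was narrow. CTEPH libraries s1 and s9, at -2.69 and -2.64, lay just above the highest Sham library, s6, at -2.73. Libraries s3, s4 and s5 stood far above Sham, at 0.69, 0.48 and -0.84. The other 5 differences did not pass: TREM2 minus MRC1 shifted by 2.48 (exact p = 0.0238, adjusted p = 0.0714), TREM2 minus CD163 by 1.78 (adjusted exact p = 0.190), SPP1 minus CD163 by 1.39 (adjusted exact p = 0.190), GPNMB minus MRC1 by 0.88 (adjusted exact p = 0.257) and GPNMB minus CD163 by 0.19 (exact p = 0.817).

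The number of differences that passed changed with the libraries included. TREM2 minus CD163 was -8.76 in s1 and -6.07 to -4.05 in the other CTEPH libraries, against -8.60 to -6.43 in Sham. SPP1 minus CD163 was -5.25 in s1, below every Sham library, and -3.56 to -0.92 in the other CTEPH libraries, against -4.19 to -3.75 in Sham. Without s1, 4 of the 6 differences passed, namely those of TREM2 and SPP1 against CD163 and against MRC1, at adjusted exact permutation p of 0.0159 to 0.0238. Without Sham library s2, s6, s7, s8 or s10, 0 of the 6 passed by the exact permutation test, and 1 or 2 had an unadjusted p under 0.05. In each of these refits every CTEPH library still lay above every remaining Sham library for SPP1 minus MRC1. Its shift was 2.014 to 2.176, against 2.09 with all libraries. The test compares means, and with unequal groups another grouping can differ more in mean than a fully separated one. These refits therefore cannot decide whether the call of SPP1 minus MRC1 rested on a single Sham library.

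**Figure D3:**
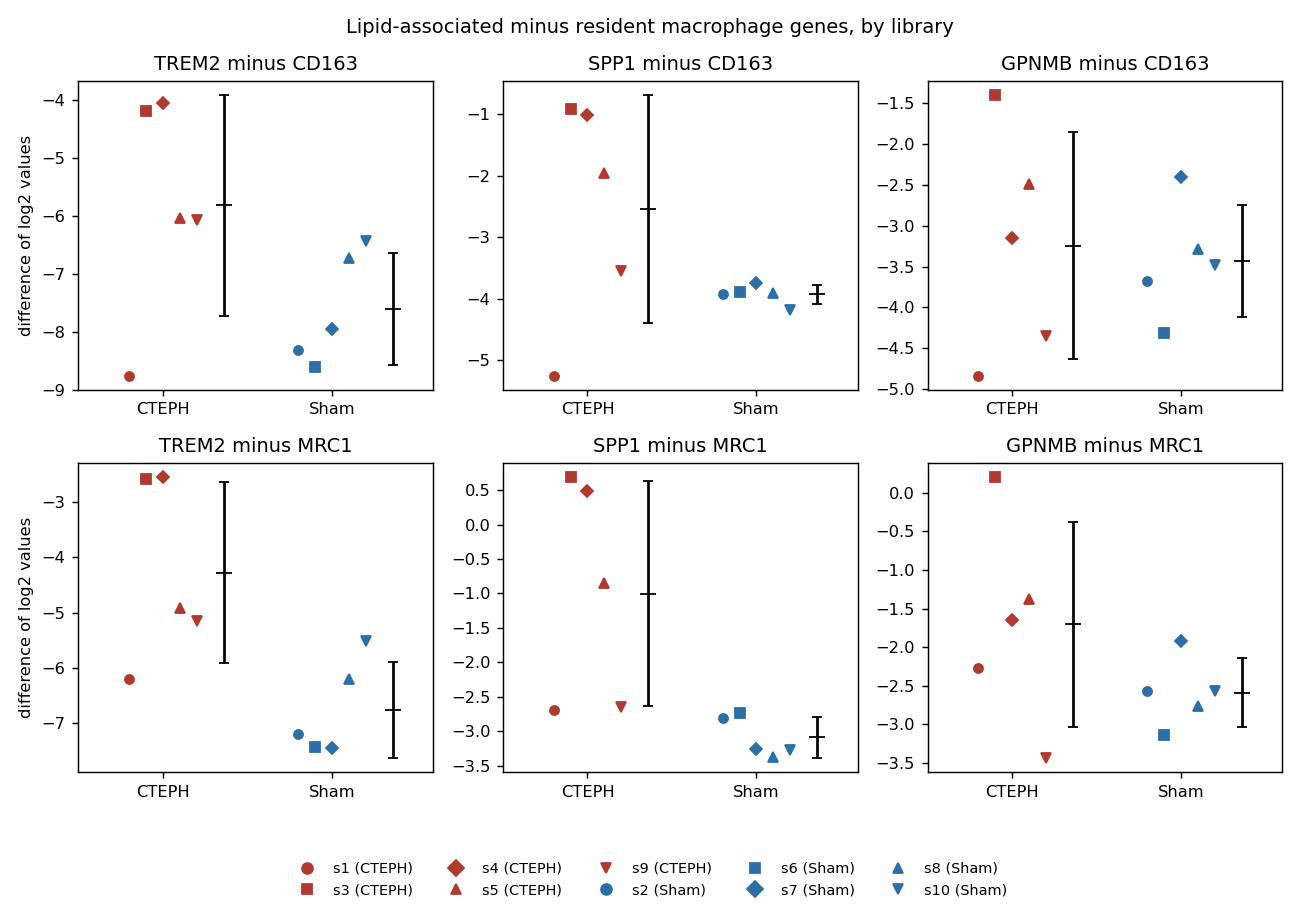
Difference of log2 values within each library for the 6 pairs of a lipid-associated and a resident gene, with CTEPH in red on the left and Sham in blue on the right; black bars give the group mean ± SD (n = 5 each). SPP1 minus MRC1 separates the groups, narrowly for s1 and s9, and s1 is the lowest library in the 3 panels with CD163.

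The CTEPH libraries differed from each other in which of these genes were high. Averaged over TREM2, SPP1 and GPNMB, libraries s3, s4 and s5 stood 3.45, 2.54 and 2.13 above the Sham mean on the log2 scale, and s1 and s9 stood 0.99 and 1.04 above it, while Sham libraries lay between -0.25 and 0.61. Averaged over CD163 and MRC1, s1, s9 and s5 stood 1.42, 0.67 and 0.49 above the Sham mean, while s3 and s4 stood at 0.25 and -0.04, against -0.37 to 0.28 in Sham. Libraries s1, s5 and s9 lay above every Sham library on both averages. These levels are a description without a test. With 1 biopsy library per pig, a difference between pigs cannot be told apart from a difference between biopsies or libraries. In the alternative fit with library weights, s1 and s9 had the lowest weights, 0.476 and 0.508, against 0.773 to 2.16 in the other libraries. The spread among CTEPH pigs of TREM2, SPP1 and GPNMB was larger than that of 96.7%, 96.6% and 95.0% of genes, and that of LGMN than 41.5%. Among Sham pigs the spread of TREM2, SPP1 and GPNMB was larger than that of 95.1%, 57.6% and 82.1% of genes, and that of LGMN than 16.4%. A wide spread of TREM2 was thus found in both groups.

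**Figure D4:**
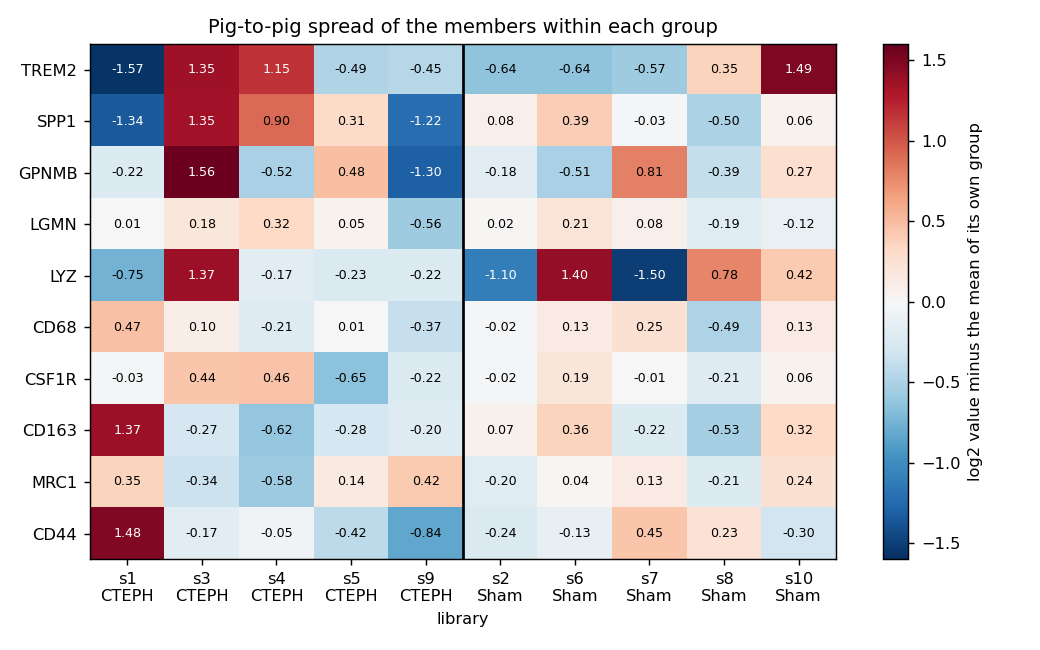
Log2 value of each gene minus the mean of its own group, by library, with CTEPH libraries on the left of the line and Sham libraries on the right; red is above and blue below the group mean. Library s3 is red for TREM2, SPP1, GPNMB and LYZ, and s1 is red for CD163 and CD44 and blue for TREM2 and SPP1.

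Likeness of pattern was measured as the root mean square difference over the 10 libraries, after taking off each group's mean and scaling each gene to an SD of 1, so that 0 is the same pattern. Around SPP1 the nearest of the other 9 genes was LGMN at 0.722, and around CD163 it was CD68 at 0.721, followed by CD44 at 0.874. These were closer than 95.3%, 97.8% and 93.6% of all genes, so many genes outside the 10 lay closer still. Of the other 9, TREM2 was nearest to SPP1 at 0.850, closer than 96.1% of all genes. It was farthest from MRC1 at 1.76, with CD163 at 1.75, against a median of 1.41 over 10262 candidate genes. Across the table STK32A (0.328) and SNX21 (0.417) came closest to TREM2, APLP2 (0.236) and FAM20C (0.242) to SPP1, TTF1 (0.363) and MED20 (0.369) to CD163, and SHISA4 (0.302) and FAM50A (0.303) to CSF1R. None of these 8 genes passed the comparison of the groups (smallest adjusted p = 0.0692, of SHISA4, limma with Benjamini-Hochberg).

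Among other genes of lipid-associated macrophages and lysosomes, 1 of 25 measured was higher in CTEPH and 0 were lower. Over all genes, 2.83% were higher and 1.79% lower. Of the 25, 4 had an unadjusted p under 0.05 (limma), against 20.3% of all genes, and the list's median log2 fold change was 0.12. The called gene was MSR1, the class A scavenger receptor that takes up modified lipoproteins, on chromosome 17 from 3859903 to 3939612. CTEPH libraries s1, s3, s4, s5 and s9 had log2 values of 7.81, 7.91, 7.75, 7.86 and 7.90, against 6.04, 6.55, 6.09, 5.68 and 6.75 in Sham libraries s2, s6, s7, s8 and s10. The groups did not overlap and the CTEPH pigs were nearly level, unlike for TREM2 and SPP1. MSR1 had a log2 fold change of 1.62 ± 0.23 (SE; limma, Benjamini-Hochberg adjusted p = 0.00164), with recovered counts of 86 to 177 in CTEPH and 21 to 70 in Sham, and the call was kept in all 10 refits without 1 library.

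The rest of that list did not pass. The apolipoprotein gene APOE was at 0.53 ± 0.48 on the log2 scale, the galectin gene LGALS3 at -0.05 ± 0.23, the fatty acid binding protein gene FABP5 at -0.14 ± 0.24 and the lipid droplet coat gene PLIN2 at 0.64 ± 0.35 (SE; smallest adjusted p among these = 0.327, of PLIN2, limma with Benjamini-Hochberg). The lipoprotein lipase gene LPL was at 0.32 ± 0.13 (SE; limma, Benjamini-Hochberg adjusted p = 0.202). The cholesterol exporter gene ABCG1 and the lysosomal membrane gene LAMP2 were at -0.66 ± 0.24 and -0.48 ± 0.18 (adjusted p = 0.144 and 0.152, limma with Benjamini-Hochberg).

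Of 7 measured genes of TREM2 signalling and shedding, limma called 0 in either direction, 0 had an unadjusted p under 0.05, and there was a median log2 fold change of 0.19. TYROBP, the adaptor through which TREM2 signals, had log2 values of 8.79, 8.60, 8.59, 7.41 and 8.39 in CTEPH libraries s1, s3, s4, s5 and s9, against 7.51, 8.72, 7.80, 7.45 and 7.86 in Sham libraries s2, s6, s7, s8 and s10. Its groups overlapped at both ends, and its difference of 0.49 ± 0.30 did not pass (SE; limma, Benjamini-Hochberg adjusted p = 0.388). The kinase gene SYK, which acts after TYROBP, was at 0.19 ± 0.29.

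Of the ligands of CSF1R, IL34 was higher in CTEPH. IL34 lies on chromosome 6 from 13588748 to 13679864, and its log2 values were 10.36, 11.72, 11.13, 10.20 and 10.27 in CTEPH libraries s1, s3, s4, s5 and s9, against 9.37, 8.90, 9.59, 9.58 and 9.69 in Sham libraries s2, s6, s7, s8 and s10. The groups did not overlap, and s3 and s4 were again the highest. IL34 had a log2 fold change of 1.31 ± 0.28 (SE; limma, Benjamini-Hochberg adjusted p = 0.0189), and the call was lost without CTEPH library s4 or Sham library s6, at an adjusted p = 0.0532 and 0.0506. The other ligand gene, CSF1, had a difference of -0.17 ± 0.25 (limma, Benjamini-Hochberg adjusted p = 0.758). IL34 was the only called gene of 6 measured on the list of CSF1R ligands and partners, against 2.83% of all genes higher and 1.79% lower. The transcription factor gene RUNX1 separated the groups without passing (0.88 ± 0.24; adjusted p = 0.0523, limma with Benjamini-Hochberg).

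Resident and general macrophage genes outside the 10 did not pass. Of 12 further resident genes 0 were called by limma in either direction and 1 had an unadjusted p under 0.05, with 6 positive and 6 negative differences and a median log2 fold change of -0.01. The hyaluronan receptor gene LYVE1 was at -0.90 ± 0.50 and the complement receptor gene VSIG4 at 0.60 ± 0.20 (SE; adjusted p = 0.347 and 0.120, limma with Benjamini-Hochberg). Of 15 general macrophage and myeloid genes 0 were called and 2 had an unadjusted p under 0.05, with 13 positive differences and a median log2 fold change of 0.37, and the perforin-like gene MPEG1 came nearest at 0.99 ± 0.29 (limma, Benjamini-Hochberg adjusted p = 0.0746). Of 6 measured genes of monocyte recruitment 0 were called and 2 had an unadjusted p under 0.05. These counts at an unadjusted p stand against the 20.3% of all genes.

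The receptors of osteopontin and the partners of CD44 were followed in the same way. Of 9 integrin genes that serve osteopontin, limma called 0, and 4 had an unadjusted p under 0.05, against 20.3% of all genes. The alpha v subunit gene ITGAV was at 0.65 ± 0.18 (adjusted p = 0.0535) and ITGA9 at 0.55 ± 0.18 (adjusted p = 0.102), while ITGA8 was at -0.98 ± 0.33 (limma, Benjamini-Hochberg adjusted p = 0.112). Of 9 measured genes of hyaluronan and CD44 partners 1 was higher and 0 were lower, against 2.83% and 1.79% of all genes. That gene was HMMR, a hyaluronan-binding protein that also works on the mitotic spindle, at 3.40 ± 0.39 (limma, Benjamini-Hochberg adjusted p = 2.8e-04).

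Several other transcripts moved with the same contrast, in which 2.83% of all genes were called higher and 1.79% lower. All 8 measured cell division genes were higher in CTEPH (limma, Benjamini-Hochberg), with a summed log2 level of 11.90 to 13.31 in CTEPH and 10.23 to 10.64 in Sham, none of them at a count of 0. Of the genes of other leukocytes, 0 of 5 T and NK cell genes, 0 of 1 B cell gene, 0 of 2 neutrophil and mast cell genes and 0 of 2 dendritic cell genes were called by limma, while 0, 0, 2 and 0 had an unadjusted p under 0.05. The summed log2 level of T and NK cell genes was 9.18 to 9.70 in CTEPH and 8.95 to 10.12 in Sham. Of 3 endothelial genes TEK was lower, at -0.78 ± 0.17 (limma, Benjamini-Hochberg adjusted p = 0.0205), and of 6 cardiomyocyte genes MYL2 was higher, at 0.99 ± 0.21 (adjusted p = 0.0173). The call of TEK was lost without CTEPH library s3 or s4 or Sham library s6, s8 or s10, where the adjusted p was 0.0508 to 0.0576, and that of MYL2 without CTEPH library s4, at 0.0509 (limma, Benjamini-Hochberg). Of 4 fibroblast, 4 mural, 2 Schwann cell and 2 osteoclast genes limma called 0, while 1, 2, 1 and 0 had an unadjusted p under 0.05, again against 20.3% of all genes. The part of these cell types in the values of the 10 genes was not tested.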

How the data were processed

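RNA was sequenced from right ventricular biopsies of 5 CTEPH and 5 Sham pigs. The authors deposited log2 values, 1 per gene and library. Per the submitters' processing notes, bcl2fastq 2.18.12, cutadapt 1.15, FastQC 0.11.5, featureCounts, edgeR 3.36.0, limma 3.50.0 and build Sscrofa11.1 were used; the sources used here do not give the aligner, annotation or strand setting. The labels give polyA RNA but name a total RNA kit. Libraries share nearly 1 distribution (medians 9.305 to 9.308), so a change common to most genes could not appear, and the constant inside the log2 values can understate folds at the lowest counts.

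Low values were read back as whole counts c, since each equals a quantile mean of log2(2c + 1). This gave 82414 values (52.7%) up to a log2 value of 9.48, reproduced to within 5.0e-10 (tolerance 1e-06). A common factor of the counts stays unknown. Relative depth is the median ratio to the geometric mean over 5694 genes with at least 5 counts in every library; total depth is unknown.

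Symbols matched 12378 genes. Coordinates come from the RefSeq table of Sscrofa11.1, matched by symbol. The groups were compared with limma 3.58.1 (R 4.3.3; intensity trend, no covariate, two-sided), with Benjamini-Hochberg adjustment over all genes and a threshold of 0.05. Exact permutation tests used all 252 assignments with every library in, and all assignments of the remaining libraries in refits without 1. On simulated data for this comparison, over all genes of the table, 48.5%, 86.5% and 95.0% of genes changed by 1, 2 and 3 on the log2 scale were recovered. A few genes stand on more than 1 list. The members, the 19 context lists and the 6 pairs were chosen with earlier results of these data known. Named are all members, each list's called genes and those with its 3 smallest p, and genes closest in pattern to TREM2, SPP1, CD163 and CSF1R among the upper 75% by level, of which the closest are printed. APOE, LGALS3, FABP5, PLIN2, LPL, SYK, CSF1 and TIMD4 were named after their values were seen. Alternatives were a fit without trend, robust variances, library weights, the lowest 25% of genes dropped, voom on recovered counts, medians in the exact test, and each library left out.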

Additional observations from a re-analysis of the deposited data

Results flagged for a closer look

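In 5 groups, 1 library stood farther from its group than Dixon's test at the 95% level allows, among 142 groups of 5 libraries examined; chance flags about 1 in 20. CTEPH library s3 was high for LYZ, at a log2 value of 9.24 with the next library at 7.69. CTEPH library s1 was high for CD163, at 12.54 with the next at 10.96. CTEPH library s5 was low for the macrophage gene AIF1, at 8.43 with the next at 9.15. Sham library s8 was low for the resident gene LYVE1, at 8.36 with the next at 9.55, and Sham library s6 was high for the T cell gene CD2, at 7.80 with the next at 6.43.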

How the results depend on the processing

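No paired analysis was possible because each library number occurs once. The count of members called higher stayed at 5 without the intensity trend, with robust variances and with library weights, and was 3 with the lowest 25% of genes dropped, which removes TREM2 and LYZ from the test. With voom on recovered counts it was 1, LYZ, of the 3 members that could be fitted. Without 1 library it was 3 to 5, and 0 were lower under every one of these fits. Over all genes, 443 were higher and 280 lower; library weights gave 722 and 547, dropping low genes 273 higher, voom on recovered counts 212 and 95 of the genes with counts in every library, and leaving out 1 library 270 to 570 higher and 117 to 392 lower. Of the 6 pair differences, 1 passed, 0 with medians in the exact test, and 0 to 4 without 1 library. Where 0 passed without 1 library, a Sham library was omitted and SPP1 minus MRC1 still separated the groups. The sign turned for CSF1R without CTEPH library s3 or s4 or Sham library s8, with log2 fold changes of -0.081 to 0.20 over the 10 omissions, and for GPNMB minus CD163 without CTEPH library s3 or s5 or Sham library s6, with shifts of -0.27 to 0.58. The cause of the other changes was not tested. Counts under 10 limit the precision of TREM2 in Sham.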

Other observations

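MSR1 was nearly level among the CTEPH pigs, with an SD of 0.067 on the log2 scale that was larger than that of 0.294% of genes, against 0.43 in Sham (n = 5 each). TIMD4, a marker of resident macrophages in mouse, had recovered counts of 3 to 18 in CTEPH and 5 to 30 in Sham, and was at -0.49 ± 0.54 on the log2 scale without passing (SE; limma, Benjamini-Hochberg adjusted p = 0.662).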
